A study of Homo sapiens with 4 samples.

Results

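The interferon module examined here is a list of 56 genes that are induced by interferons or that sense viral nucleic acids, out of 39259 genes in the deposited expression table. The genes were taken by symbol from a list, not by a threshold on their values, and all 56 were found. The list was drawn up with earlier results of these data known. They comprise 6 transcription factors of the STAT and IRF families, 7 sensors and adaptors, 12 effectors that act on RNA, 11 factors that block virus entry, budding or replication, 8 modifiers of the ISG15, ubiquitin and ADP-ribose systems, 3 guanylate-binding proteins and 9 other interferon-induced genes. The cells were MDA-MB-231, a long-established line from a triple-negative breast cancer, and their RNA was sequenced in 2 libraries labelled as a knockout (KO) of mdig and 2 libraries of wild-type (WT) cells. Both groups were grown in the same serum-supplemented medium, and the labels name no interferon, virus or other agent for either group. RIOX2 encodes mdig, also called MINA53, an oxygenase with a JmjC domain. The labels do not say how the knockout was made, whether it was 1 clone, or whether replicates were separate cultures, so the p-values rest on a spread between libraries that may be technical only.

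Cells detect viral RNA in the cytosol with RIG-I and MDA5, which signal through the mitochondrial adaptor MAVS, and they detect cytosolic DNA with cGAS, which signals through STING. Both routes activate IRF3 and IRF7 and so the transcription of interferons. Secreted interferons of type I and type III act through JAK kinases on a complex with STAT2 and IRF9 that binds interferon-stimulated response elements in the promoters of many antiviral genes. Interferon gamma acts through STAT dimers and IRF1, and guanylate-binding proteins are among its classic targets. Many tumour lines express part of this program without any infection.

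The libraries held 48768932 and 52163811 fragments assigned to genes in the libraries labelled KO, and 45173267 and 22503981 in WT replicates 1 and 2. RIOX2, the targeted gene, measured 9.23 and 9.82 FPKM (fragments per kilobase of a gene, scaled to 1000000 assigned fragments in all) in the libraries labelled KO, against 8.60 and 8.24 FPKM in WT. Its RNA was not lower (log2 change 0.16, SE 0.0597, adjusted p = 0.0546), and 30.3% of its exon length overlaps CRYBG3 on the opposite strand, so the RNA level does not check the label. Of 7 markers of the line, 3 rose and 1 fell at an adjusted p under 0.05. The 7 summed to 3371 and 3394 FPKM in the libraries labelled KO and to 3317 and 3409 FPKM in WT. Among them VIM, which encodes vimentin, was at 1999.6 and 2000.1 FPKM in the libraries labelled KO and 2275 and 2394 FPKM in WT. VIM thus gave most of each sum, and the sums say little of the other markers. The largest log2 change among the 7 was a rise in a marker other than VIM, far larger in size than any fall. Of 8 luminal markers, the hormone receptor genes ESR1 and PGR had 1 fragment each over the 4 libraries, but the keratin genes KRT8 and KRT18 were abundant, and the 8 summed to 558 and 538 FPKM in the libraries labelled KO and to 574 and 593 FPKM in WT. Of 8 markers of T, B and NK cells, 3 had no fragment in any library, and the 8 summed to 0.108 and 0.280 FPKM in the libraries labelled KO and to 0.390 and 0.558 FPKM in WT. The 8 markers of myeloid and plasmacytoid dendritic cells summed to 48.5 and 46.6 FPKM in the libraries labelled KO and to 79.9 and 78.1 FPKM in WT. CD68, a lysosomal protein that many cell types also make, gave nearly all of that sum (46.2 and 44.6 FPKM in the libraries labelled KO, 77.8 and 75.8 FPKM in WT), and LILRA4 and CLEC4C, which define plasmacytoid dendritic cells, had no fragment. The 8 markers of fibroblasts and endothelium summed to 5.91 and 5.65 FPKM in the libraries labelled KO and to 4.16 and 4.30 FPKM in WT. The part of these differences in the results below was not tested, and in such bulk RNA fewer cells of a type and less RNA per cell cannot be told apart.

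Most genes of the module that changed were higher in the libraries labelled KO. This did not hold for 20 tested interferon-induced genes outside the module, of which 6 rose and 6 fell. Among the 12 genes of the module that averaged 20 FPKM or more, ADAR alone rose, where 19.9% of all tested genes at that level did. That limit was set with the values known, and UBE2L6, which rose, lay just under it at 19.898 FPKM. Of the 56 genes, 51 averaged 1 FPKM or more across the 4 libraries and were tested. Among them 24 rose and 6 fell at an adjusted p under 0.05 (limma on log2(FPKM + 1), Benjamini-Hochberg over all 11716 genes tested), and 21 did not pass. Over all genes tested, 21.6% rose and 28.4% fell, so 49.9% changed in one direction or the other. The median log2 change of the 51 genes was 0.17, against −0.04 for all genes tested. Both libraries labelled KO lay above both WT libraries for 31 of the 51 genes, as for 32.9% of all genes tested, and below them for 11 genes, as for 44.6% of all. None of the 51 passed the filter through 1 group only. Summed over the 56 genes, the level was 1376 and 1320.2 FPKM in the libraries labelled KO and 1339 and 1411 FPKM in WT, so the groups overlapped. This sum leans on the most abundant genes. IFITM3 alone gave 359.7 and 320.3 FPKM of it in the libraries labelled KO and 394 and 428 FPKM in WT. The count of falls depended on the libraries kept: it was 3 without KO replicate 2, 4 without KO replicate 1, 10 without WT replicate 1 and 8 without WT replicate 2. The count of rises varied less across these fits. Requiring a mean of 5 FPKM left 39 genes tested, of which 15 rose. All 20 changes among these genes that had passed the threshold still did.

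**Figure D1:**
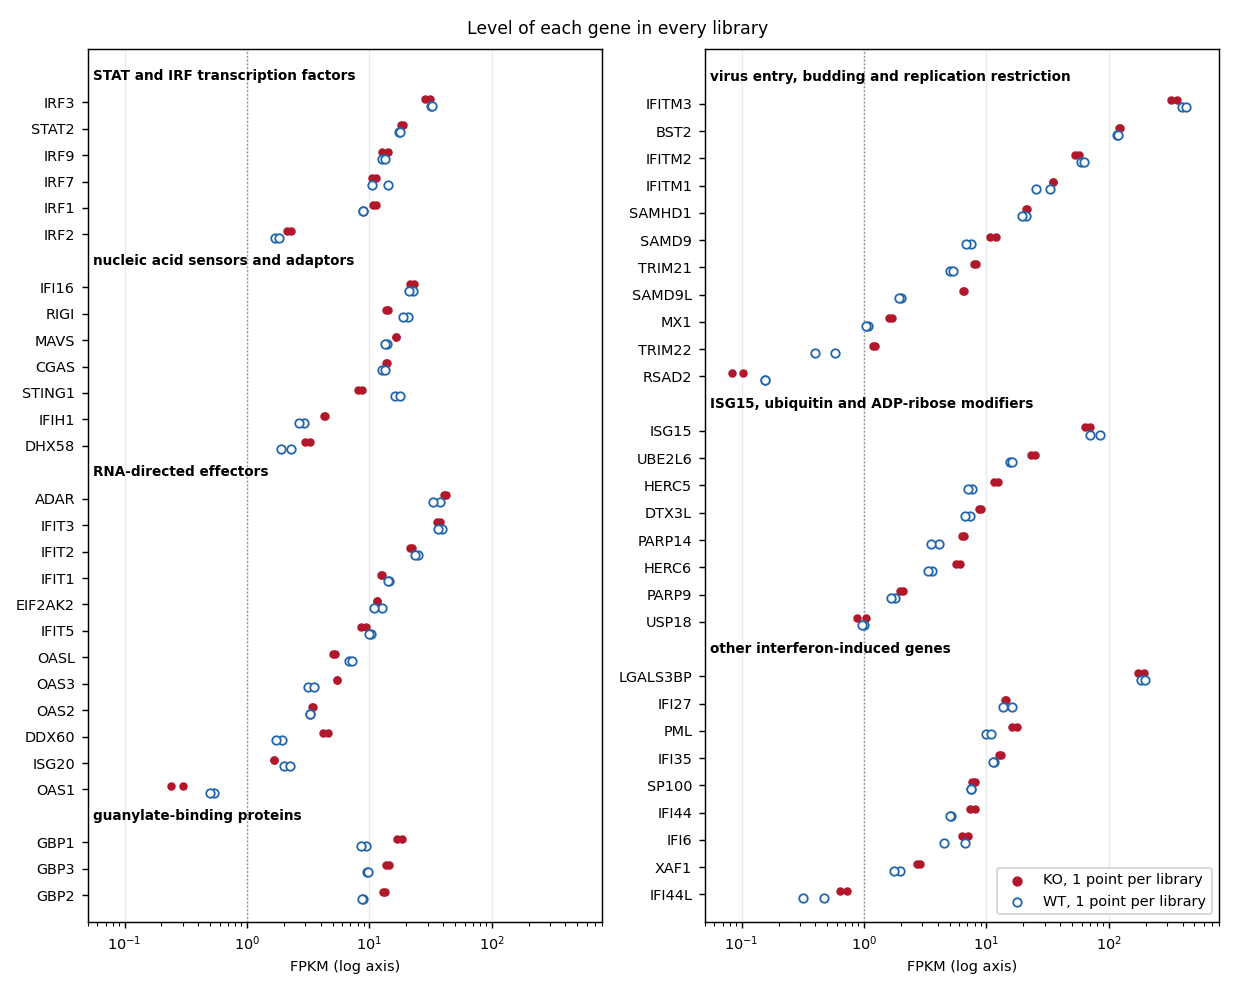
FPKM on a log axis for the 56 genes, grouped by role and ordered by mean level, with 1 filled point per library labelled KO and 1 open point per WT library; the dotted line marks 1 FPKM. SAMD9L lies at 6.40 and 6.60 FPKM in the libraries labelled KO, clear of 1.99 and 1.92 FPKM in WT, whereas the points of LGALS3BP overlap.

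Promoter sequences are shown for genes that the results below turn on, so that genes with unlike changes can be set beside each other. The RefSeq windows (GRCh38.p14, 250 bases before to 50 after an annotated start) covered 42 of the 56 genes with 55 windows. They were searched on both strands for GAAANNGAAA, the core of the interferon-stimulated response element that IRF proteins also bind, and for TTCNNNGAA, the site of STAT dimers. At least 1 GAAANNGAAA was found in 27 of the 42 genes (64.3%), against 4.38% of 27305 genes with such windows and 3.87% of the 9241 tested genes among them. TTCNNNGAA was found in 11 of 42 genes (26.2%), against 9.38% of all genes, and 5 distinct pairs of matches to the different motifs overlapped, in 4 genes. GAAANNGAAA matches stood in 12 of 20 genes that rose, 3 of 4 that fell and 10 of 15 that did not pass. TTCNNNGAA matches stood in 6 of 20, 0 of 4 and 4 of 15. Differences between these shares were not tested, and few genes fell. A match is a run of letters, not a shown binding site. The 170 bases before the start are printed 5′ to 3′ in the direction of transcription, with GAAANNGAAA matches on either strand in capitals.
SAMD9L: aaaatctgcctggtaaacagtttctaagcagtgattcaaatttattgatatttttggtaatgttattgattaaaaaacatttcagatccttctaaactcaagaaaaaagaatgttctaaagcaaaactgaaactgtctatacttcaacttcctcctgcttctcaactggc
SAMD9: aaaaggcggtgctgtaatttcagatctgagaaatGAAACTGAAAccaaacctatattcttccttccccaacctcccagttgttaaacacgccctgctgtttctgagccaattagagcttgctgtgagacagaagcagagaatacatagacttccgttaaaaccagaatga
IFIH1: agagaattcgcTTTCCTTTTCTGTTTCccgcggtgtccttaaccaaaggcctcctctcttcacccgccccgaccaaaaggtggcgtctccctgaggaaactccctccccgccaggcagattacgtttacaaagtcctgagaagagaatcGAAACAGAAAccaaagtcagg
RIGI: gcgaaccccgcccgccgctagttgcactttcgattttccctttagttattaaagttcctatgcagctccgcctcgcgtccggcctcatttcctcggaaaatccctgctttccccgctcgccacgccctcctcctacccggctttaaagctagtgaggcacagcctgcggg
HERC5: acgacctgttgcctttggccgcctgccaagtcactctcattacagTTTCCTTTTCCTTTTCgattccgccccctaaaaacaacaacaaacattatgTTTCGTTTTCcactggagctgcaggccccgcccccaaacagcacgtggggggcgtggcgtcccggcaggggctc
GBP1: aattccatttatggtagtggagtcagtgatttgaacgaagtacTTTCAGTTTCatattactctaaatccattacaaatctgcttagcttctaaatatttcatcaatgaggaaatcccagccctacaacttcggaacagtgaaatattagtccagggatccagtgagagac
IFIT1: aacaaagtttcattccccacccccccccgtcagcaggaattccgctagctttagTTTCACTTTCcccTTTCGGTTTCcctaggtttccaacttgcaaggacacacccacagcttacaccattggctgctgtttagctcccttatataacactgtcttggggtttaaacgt
ISG15: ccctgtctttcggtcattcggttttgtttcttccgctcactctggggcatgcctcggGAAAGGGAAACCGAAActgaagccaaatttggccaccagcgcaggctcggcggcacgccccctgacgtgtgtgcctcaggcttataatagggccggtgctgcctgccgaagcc
These windows lie at chr7:93148386-93148555 for SAMD9L, chr7:93117980-93118149 for SAMD9, chr2:162318685-162318854 for IFIH1, chr9:32526197-32526366 for RIGI and chr1:89065209-89065378 for GBP1, all on the minus strand. Those on the plus strand lie at chr4:88456949-88457118 for HERC5, chr10:89392453-89392622 for IFIT1 and chr1:1013327-1013496 for ISG15. IFIH1 and HERC5, which rose, hold 3 matches each, but IFIT1, which fell, and ISG15, which did not pass, hold 2 each. SAMD9L, with the largest rise of the module, and RIGI, which fell, hold none in these 170 bases.

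Nucleic acid sensors changed in opposite directions: of 7 tested genes, 3 rose (IFIH1, DHX58 and MAVS) and 2 fell (STING1 and RIGI). For comparison, 21.6% of all genes tested rose and 28.4% fell. STING1, the adaptor of cytosolic DNA sensing, had the largest fall of the module, with 8.76 and 8.11 FPKM in the libraries labelled KO, against 16.3 and 17.7 FPKM in WT (chr5:139475533-139482758; log2 change −0.93, SE 0.0647, adjusted p = 3.09e-05). The groups did not overlap, and the mean of the libraries labelled KO was 0.496 of that of WT. RIGI, which encodes the RNA sensor RIG-I, had 13.8 and 14.3 FPKM in the libraries labelled KO and 20.5 and 18.7 FPKM in WT (chr9:32455302-32526196; −0.46, SE 0.0619, adjusted p = 0.000649), with no overlap of the groups. IFIH1, which encodes MDA5, the sensor of long duplex RNA, moved the other way, with 4.32 and 4.25 FPKM in the libraries labelled KO and 2.92 and 2.64 FPKM in WT (0.48, SE 0.0638, adjusted p = 0.000585). DHX58, which encodes LGP2, a relative of both that lacks their signaling domains, had 3.28 and 2.95 FPKM in the libraries labelled KO and 1.91 and 2.28 FPKM in WT (0.41, adjusted p = 0.00332). Thus 2 of the 3 RIG-I-like receptors were higher and the most abundant of the 3 was lower. MAVS, the adaptor shared by RIG-I and MDA5, rose by 0.26 (adjusted p = 0.00521, but 0.0519 without KO replicate 1), and by 0.16 with its bin median subtracted. CGAS, the DNA sensor upstream of STING1, had 13.6 and 14.0 FPKM in the libraries labelled KO and 12.7 and 13.4 FPKM in WT and did not pass (adjusted p = 0.332). Neither did IFI16, a nuclear DNA sensor, at 21.6 and 23.1 FPKM in the libraries labelled KO and 22.6 and 21.1 FPKM in WT (adjusted p = 0.676).

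Of the 6 transcription factors, IRF1 and IRF2 rose and none fell, beside 21.6% and 28.4% of all genes tested. IRF1, an activator that responds to interferon gamma, had 10.8 and 11.3 FPKM in the libraries labelled KO and 8.91 and 8.95 FPKM in WT (log2 change 0.28, adjusted p = 0.00438, but 0.0629 without KO replicate 2). IRF2, which can repress the same sites, rose by 0.21 (adjusted p = 0.0263), a call lost without KO replicate 1 (0.0871) or KO replicate 2 (0.227). It lies at chr4:184382741-184474580, where the median change over the 23 other tested genes in the same 20 Mb bin was 0.42. After that median was subtracted the change of IRF2 was −0.20 (adjusted p = 0.0395). The median was taken as a fixed value, so this p-value leaves out the spread within the bin. The change of IRF2 before subtraction also depended on the scale, at 0.30 with a pseudocount of 0.1. STAT2, a subunit of the interferon type I complex, had 18.0 and 18.7 FPKM in the libraries labelled KO and 17.6 and 17.7 FPKM in WT (adjusted p = 0.426), and it passed with bin medians subtracted (0.22, adjusted p = 0.0129). Its partner IRF9 had 14.1 and 12.7 FPKM in the libraries labelled KO and 12.6 and 13.3 FPKM in WT (adjusted p = 0.620). IRF3, the factor that the sensors activate first, had 31.2 and 28.7 FPKM in the libraries labelled KO and 31.8 and 32.2 FPKM in WT (adjusted p = 0.209), and 14.5% of its exon length overlaps BCL2L12 on the opposite strand. For IRF7, the interferon-induced member of the pair, the libraries labelled KO (11.3 and 10.4 FPKM) overlapped the WT libraries (10.4 and 14.3 FPKM), which themselves lay far apart. Its change of −0.16 passed the threshold only without WT replicate 1 (−0.37, adjusted p = 2.96e-07) and was 0.05 without WT replicate 2.

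**Figure D2:**
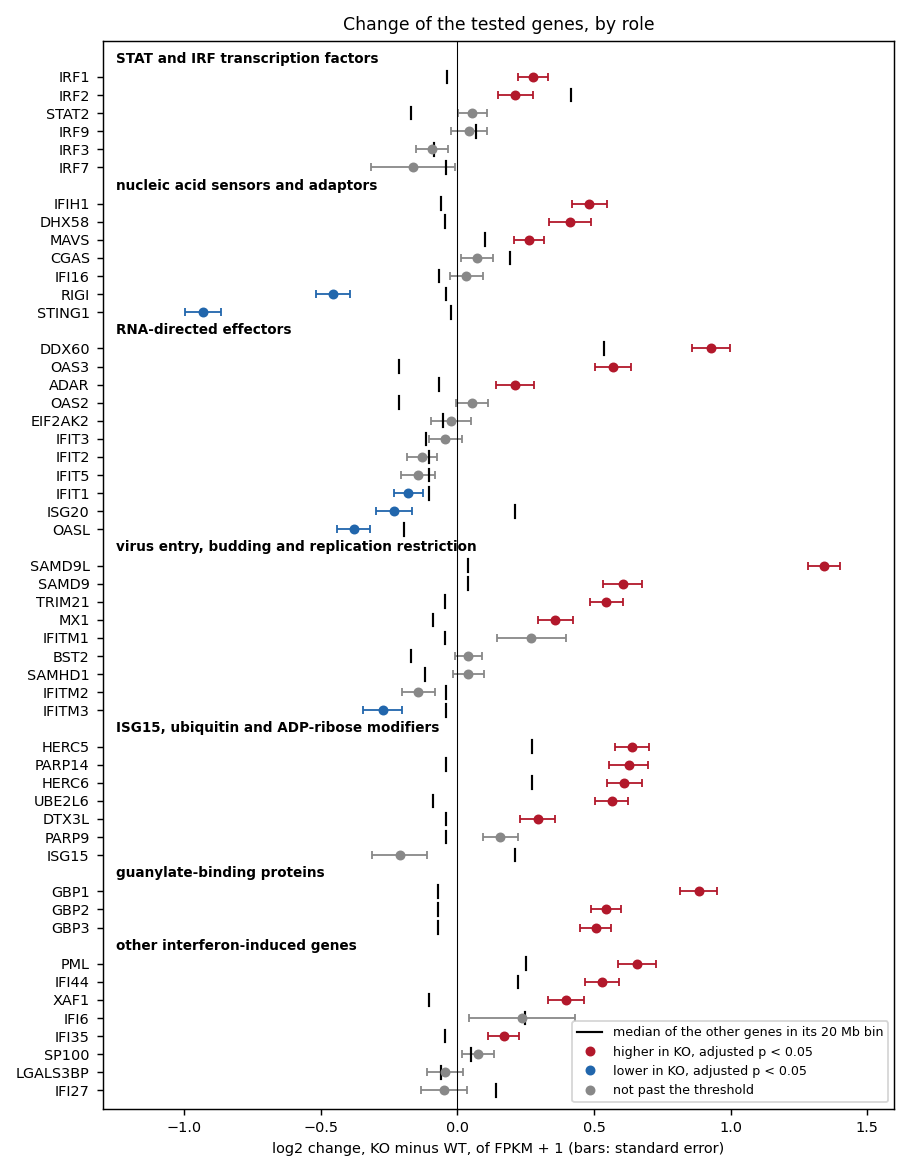
Log2 change of FPKM + 1, libraries labelled KO minus WT, of the 51 tested genes by role, with standard errors; red points rose, blue points fell, grey points did not pass, and black ticks give the median change of the other tested genes in the same 20 Mb bin. All 3 guanylate-binding proteins lie to the right of 0 by at least 0.51, and the sensors span −0.93 to 0.48.

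Of 11 tested effectors that act on viral or cellular RNA, 3 rose and 3 fell, with a median of −0.04. These shares were near those over all genes tested, 21.6% and 28.4%. DDX60, a helicase-like factor that has been described as a helper of RIG-I, had 4.18 and 4.58 FPKM in the libraries labelled KO and 1.92 and 1.74 FPKM in WT (log2 change 0.93, SE 0.0681, adjusted p = 4.06e-05). The rise of this gene (chr4:168216293-168325981) exceeded the median change of its bin, 0.54, by 0.39. The OAS proteins make a small messenger molecule that activates RNase L when they bind duplex RNA. OAS3 rose, with 5.48 and 5.42 FPKM in the libraries labelled KO and 3.16 and 3.55 FPKM in WT (0.57, SE 0.0658, adjusted p = 0.000320). OAS2, its neighbour on chromosome 12, had 3.40 and 3.45 FPKM in the libraries labelled KO and 3.28 and 3.25 FPKM in WT and did not pass (adjusted p = 0.465), though it did with bin medians subtracted (0.27, adjusted p = 0.00794). OAS1, the third gene of this cluster, was too low to be tested, at 0.239 and 0.297 FPKM in the libraries labelled KO and 0.537 and 0.496 FPKM in WT, from 46 to 100 fragments per library, and with no filter its change was −0.26 (adjusted p = 0.0412). Neighbours in this stretch of 104.8 kb thus had unlike values. OASL, which binds RNA without making that messenger, fell to 5.05 and 5.26 FPKM in the libraries labelled KO, against 6.83 and 7.19 FPKM in WT (−0.38, adjusted p = 0.00128). With the median of its bin, −0.20, subtracted, its change was −0.18 (adjusted p = 0.0400).

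The IFIT proteins, which recognise foreign RNA ends and are among the classic interferon-induced genes, did not rise. The 4 genes stand together in 119 kb (chr10:89302046-89420997) and changed by −0.18 to −0.04, beside a median of −0.10 for their surroundings. IFIT1 fell to 12.4 and 12.7 FPKM in the libraries labelled KO, against 14.4 and 14.3 FPKM in WT (−0.18, adjusted p = 0.0232), a call lost without KO replicate 1 (0.177) or KO replicate 2 (0.129), after median-of-ratios scaling (0.0569), with bin medians subtracted (0.293) and with a replicate block (0.0652). IFIT3, the most abundant of the 4, had 35.5 and 37.8 FPKM in the libraries labelled KO and 39.1 and 36.5 FPKM in WT, which overlap (adjusted p = 0.566). IFIT2 (−0.13, adjusted p = 0.0789) and IFIT5 (−0.14, adjusted p = 0.0896) did not pass, and without WT replicate 2 both did (0.0245 and 0.0336). ADAR, the enzyme that edits adenosine to inosine in duplex RNA, had 40.4 and 41.9 FPKM in the libraries labelled KO and 37.7 and 33.3 FPKM in WT (0.21, adjusted p = 0.0329). Its call was lost without KO replicate 1 (0.0895), KO replicate 2 (0.183) or WT replicate 2 (0.0858), and 37.2% of its exon length overlaps CHRNB2 on the opposite strand. The kinase EIF2AK2, or PKR, which halts translation on duplex RNA, had 11.6 FPKM in each library labelled KO and 12.7 and 11.0 FPKM in WT (adjusted p = 0.800). The exonuclease gene ISG20 fell by 0.23 on the log2 scale (adjusted p = 0.0201), a call lost without KO replicate 1 (0.116) or KO replicate 2 (0.125), and its change was −0.44 with its bin median subtracted.

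Among factors that restrict virus entry, budding or replication, 4 of 9 tested genes rose and 1 fell, with a median of 0.27. The shares over all genes tested were 21.6% and 28.4%. SAMD9 and SAMD9L are paralogs that restrict poxviruses and can slow translation and cell growth, and they lie side by side (chr7:93099518-93148385). SAMD9L had 6.40 and 6.60 FPKM in the libraries labelled KO and 1.99 and 1.92 FPKM in WT, a ratio of means of 3.32 (log2 change 1.34, SE 0.0591, adjusted p = 3.78e-06). SAMD9 had 10.7 and 11.9 FPKM in the libraries labelled KO and 7.43 and 6.76 FPKM in WT (0.61, SE 0.0708, adjusted p = 0.000338). Both rose well beyond the 0.04 of the other genes in their bin. TRIM21, an antibody receptor and ubiquitin ligase of the cytosol, had 7.87 and 8.20 FPKM in the libraries labelled KO and 5.08 and 5.30 FPKM in WT (0.55, adjusted p = 0.000233). MX1, a dynamin-like GTPase that blocks influenza virus, was low at 1.61 and 1.68 FPKM in the libraries labelled KO and 1.08 and 1.04 FPKM in WT, and it rose by 0.36 (adjusted p = 0.00236).

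Of the restriction factors that averaged 20 FPKM or more, none rose past the threshold and IFITM3 fell, though IFITM1 lay above WT in both libraries labelled KO. IFITM3, which hinders fusion of viruses in endosomes, was the most abundant gene of the module. It had 359.7 and 320.3 FPKM in the libraries labelled KO and 394 and 428 FPKM in WT (−0.27, SE 0.0721, adjusted p = 0.0152, but 0.159 without KO replicate 2). IFITM2 (57.2 and 52.7 FPKM in the libraries labelled KO, 59.0 and 62.5 FPKM in WT) did not pass (adjusted p = 0.0824), though it did without WT replicate 1 (0.00510). IFITM1 had 35.1 and 35.3 FPKM in the libraries labelled KO and 25.4 and 33.1 FPKM in WT, so the spread between the WT libraries exceeded the gap between the groups. It changed by 0.27 (adjusted p = 0.138) and passed without WT replicate 2 (0.46, adjusted p = 9.3e-12), with voom on fragment counts (0.36, adjusted p = 0.00890) and with a replicate block (adjusted p = 0.0242). The 3 IFITM genes lie within 13.045 kb and are similar in sequence, so reads may be shared among them and these values are uncertain. BST2, or tetherin, which holds budding virions at the cell surface, had 120.1 and 123 FPKM in the libraries labelled KO and 117 and 119 FPKM in WT (adjusted p = 0.528), and it passed with bin medians subtracted (0.21, adjusted p = 0.0125). SAMHD1, which depletes nucleotides needed for reverse transcription, did not pass either (21.3 and 20.9 FPKM in the libraries labelled KO, 21.2 and 19.7 FPKM in WT), and 18.8% of its exon length overlaps TLDC2 on the opposite strand. TRIM22 was below the filter at 1.19 and 1.22 FPKM in the libraries labelled KO and 0.583 and 0.4001 FPKM in WT, and with no filter its change was 0.57 (adjusted p = 0.0177). RSAD2, or viperin, rested on 13 to 26 fragments per library, with 0.0827 and 0.103 FPKM in the libraries labelled KO and 0.155 FPKM in each WT library. With no filter its change of −0.08 did not pass (adjusted p = 0.194).

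Of 7 tested genes of the ISG15, ubiquitin and ADP-ribose systems, 5 rose and none fell, with a median of 0.56, where 21.6% of all genes tested rose and 28.4% fell. ISG15 is a ubiquitin-like protein that UBE2L6 and HERC5 attach to targets and USP18 removes. ISG15 itself, at 70.5 and 63.4 FPKM in the libraries labelled KO and 70.7 and 85.2 FPKM in WT, did not pass (log2 change −0.21, adjusted p = 0.123). With WT replicate 1 left out it counted as lower (−0.35, adjusted p = 4.53e-08), and likewise relative to its bin (−0.42, adjusted p = 0.0180). UBE2L6, the conjugating enzyme, had 24.9 and 23.0 FPKM in the libraries labelled KO and 15.5 and 16.2 FPKM in WT (0.56, SE 0.0600, adjusted p = 0.000221). HERC5, the main ISG15 ligase in human cells, had 11.6 and 12.4 FPKM in the libraries labelled KO and 7.57 and 7.10 FPKM in WT (0.64, SE 0.0619, adjusted p = 0.000146). The conjugating enzyme and ligase were thus higher while the modifier they attach was not. HERC6, a relative next to HERC5 on chromosome 4, had 5.63 and 6.02 FPKM in the libraries labelled KO and 3.60 and 3.35 FPKM in WT (0.61, adjusted p = 0.000207), and the median change in the bin of these neighbours was 0.27, which left 0.37 for HERC5 and 0.34 for HERC6. USP18 was just below the filter, at 0.871 and 1.03 FPKM in the libraries labelled KO and 0.991 and 0.964 FPKM in WT, which overlap.

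PARP9 and DTX3L form a complex that joins ADP-ribosylation to ubiquitylation, and PARP14 is a related mono-ADP-ribosyltransferase. All 3 lie within 203 kb (chr3:122527924-122730840). PARP14 had 6.36 and 6.54 FPKM in the libraries labelled KO and 4.11 and 3.55 FPKM in WT (0.63, SE 0.0707, adjusted p = 0.000285). DTX3L had 8.62 and 9.08 FPKM in the libraries labelled KO and 7.35 and 6.73 FPKM in WT (0.29, adjusted p = 0.00608, but 0.0677 without KO replicate 2). PARP9 had 1.98 and 2.09 FPKM in the libraries labelled KO and 1.78 and 1.66 FPKM in WT and did not pass (0.16, adjusted p = 0.0747), though it did without WT replicate 1 (0.0218), after quantile normalization (0.0474) or median-of-ratios scaling (0.0406), with voom (0.0101) and with bin medians subtracted (0.0406). In both genes the libraries labelled KO lay above WT. They start back to back with 37 bases between an annotated start of each, and 1 match to GAAANNGAAA (chr3:122564332-122564341) spans the start of DTX3L. It is shown here, in capitals on the plus strand, with the bases around it (chr3:122564318-122564347).
PARP9 and DTX3L: acctccagggaagcGAAACTGAAActttgc
Another annotated start of PARP9 lies inside DTX3L, and 175 bases of exon are shared by the genes on opposite strands, so a small part of their reads may be uncertain.

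All 3 guanylate-binding proteins rose, where 21.6% of all genes tested did. These GTPases of interferon gamma responses coat vacuoles and bacteria in the cytosol, and the 3 genes stand within 119 kb (chr1:89006677-89126114). GBP1 had 16.7 and 18.3 FPKM in the libraries labelled KO and 9.46 and 8.61 FPKM in WT, a ratio of means of 1.94 (log2 change 0.88, SE 0.0690, adjusted p = 5.56e-05). GBP2 had 13.03 and 13.5 FPKM in the libraries labelled KO and 8.85 and 8.73 FPKM in WT (0.54, SE 0.0556, adjusted p = 0.000187). GBP3 had 13.6 and 14.5 FPKM in the libraries labelled KO and 9.51 and 9.69 FPKM in WT (0.51, SE 0.0580, adjusted p = 0.000310). The groups did not overlap for any of them, and the other genes of the bin had a median of −0.07. The 3 genes resemble each other in sequence, so reads may be shared among them and they are not independent measurements.

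Of 8 other tested interferon-induced genes, 4 rose and none fell, against 21.6% and 28.4% of all genes tested. PML, the scaffold of nuclear bodies, had 17.7 and 16.1 FPKM in the libraries labelled KO and 9.87 and 10.9 FPKM in WT (log2 change 0.66, SE 0.0695, adjusted p = 0.000219), on chromosome 15, where the bin median was 0.25, which left 0.41. SP100, another constituent of these bodies, had 7.64 and 8.13 FPKM in the libraries labelled KO and 7.45 and 7.43 FPKM in WT and did not pass (adjusted p = 0.322). IFI44, a cytoplasmic antiviral protein, had 7.37 and 8.06 FPKM in the libraries labelled KO and 5.09 and 4.99 FPKM in WT (0.53, adjusted p = 0.000362), on chromosome 1, where the bin median was 0.22, which left 0.31. Its neighbour IFI44L was below the filter at 0.640 and 0.729 FPKM in the libraries labelled KO and 0.316 and 0.475 FPKM in WT. These did not overlap, but with no filter its change of 0.27 did not pass (adjusted p = 0.0839). XAF1, which promotes apoptosis, rose by 0.40 (adjusted p = 0.00186). IFI35 rose by 0.17 (adjusted p = 0.0342), a call lost without KO replicate 1 (0.126) or KO replicate 2 (0.257) and with the replicate number as a block (0.0873). LGALS3BP, a secreted glycoprotein and the second most abundant gene of the module, had 192 and 174 FPKM in the libraries labelled KO and 182 and 197 FPKM in WT (adjusted p = 0.593). IFI27 had 14.1 and 14.6 FPKM in the libraries labelled KO and 13.5 and 16.3 FPKM in WT, so these overlapped too (adjusted p = 0.658), and with WT replicate 1 left out it counted as lower (−0.18, adjusted p = 0.0184). IFI6 varied widely between the WT libraries (6.31 and 7.06 FPKM in the libraries labelled KO, 4.51 and 6.73 FPKM in WT; 0.24, adjusted p = 0.377). It passed without WT replicate 2 (0.48, adjusted p = 5.61e-11), with voom (0.41, adjusted p = 0.0413) and with the replicate number as a block (adjusted p = 0.0449).

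Set out by level, all rises but that of ADAR lay below a mean of 20 FPKM, though UBE2L6 lay just below it at 19.898 FPKM. Of the 12 tested genes with a mean from 1 to under 5 FPKM, 9 rose and 1 fell, where 21.6% of all 4051 genes at that level rose and 24.1% fell. From 5 to under 20 FPKM, 14 of 27 rose and 4 fell, against 22.7% and 27.4% of 4666 genes. At 20 FPKM and above, ADAR alone rose and IFITM3 alone fell among 12 genes, against 19.9% and 35.6% of 2999 genes. The medians were 0.40, 0.24 and −0.05 from the lowest level to the highest. The limits of these levels were chosen after the values were seen, no test was made, and a pseudocount of 1 FPKM shrinks the changes of low genes, not those of abundant ones.

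**Figure D3:**
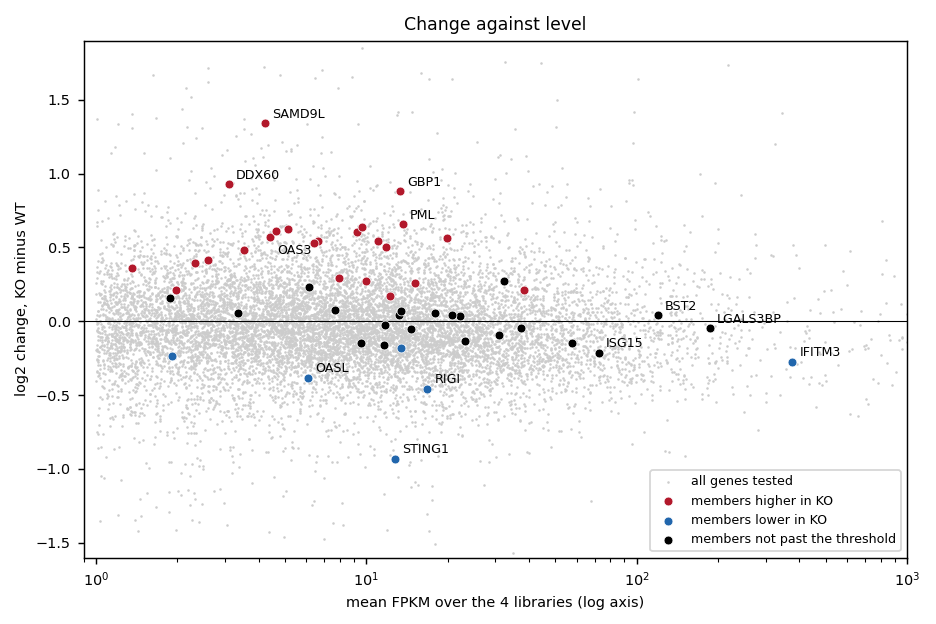
Log2 change against mean FPKM on a log axis for all genes tested (grey) and the 51 tested genes of the module (red rose, blue fell, black did not pass); 57 grey genes lie outside the axes. SAMD9L and DDX60 stand highest at low levels, and IFITM3, LGALS3BP, BST2 and ISG15 lie near or below 0 at the right.

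**Figure D4:**
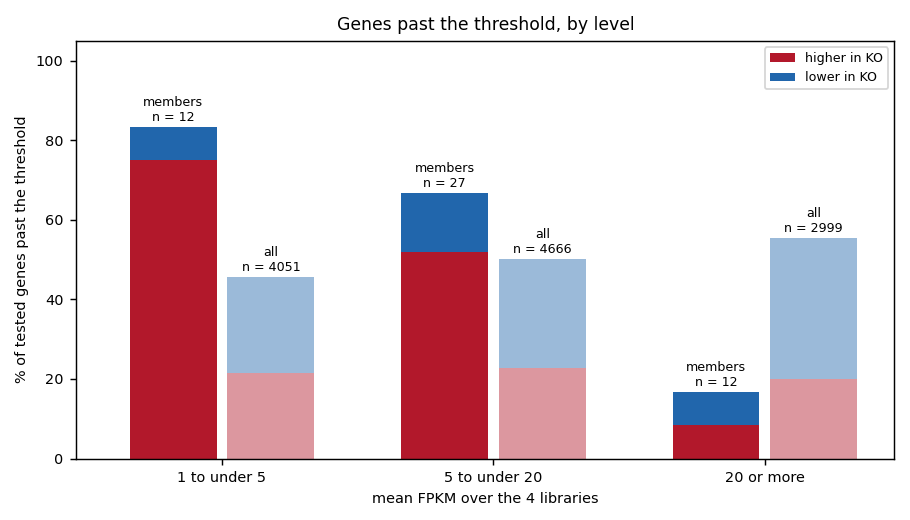
Percentage of tested genes that rose (red) or fell (blue) at 3 levels of mean FPKM, for the module (dark bars) and for all genes tested (pale bars). In the module the red share is 75.0% at the lowest level and 8.33% at the highest, against 21.6% and 19.9% of all genes tested. UBE2L6, which rose, lies just under the limit of the highest level, at 19.898 FPKM.

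Genes around the module were read from lists of ligands, receptors, regulators and signaling proteins, and their counts stand beside 21.6% of all tested genes that rose and 28.4% that fell. Of 11 interferon genes, 10 had no fragment in any library, IFNB1 among them. The other, IFNL1, had 2 fragments in KO replicate 2 and none elsewhere. In WT replicate 2, the shallowest library, 3 fragments on a gene of 1 kb would be 0.133 FPKM, so lower levels of interferon transcripts were not detectable. Of 11 receptor chains, JAK kinases and STATs, all tested, 3 rose and 3 fell. JAK1, the kinase used by all interferon receptors, had 22.5 and 23.2 FPKM in the libraries labelled KO and 18.5 and 17.2 FPKM in WT (log2 change 0.34, adjusted p = 0.00202). The type III receptor chain IFNLR1 had 1.94 and 1.93 FPKM in the libraries labelled KO and 1.40 and 1.26 FPKM in WT (0.33, adjusted p = 0.00384). Both lie on chromosome 1 in bins with medians of 0.22 and 0.24, and neither passed after these were subtracted. Among the falls were the type I receptor chain IFNAR2 (−0.31, adjusted p = 0.00419) and the gamma receptor chain IFNGR1 (−0.23, adjusted p = 0.00959), the second lost without either library labelled KO.

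Of 10 tested negative regulators, 2 rose and 6 fell. With no filter on low values, 13 were tested, and 2 rose and 2 fell. The phosphatase PTPN6, or SHP1, had 3.61 and 3.45 FPKM in the libraries labelled KO and 2.19 and 2.25 FPKM in WT (0.49, adjusted p = 0.000414), and the phosphatase PTPN1 fell by 0.27 (adjusted p = 0.00316) on chromosome 20, where the bin median was −0.21, and did not pass once this was subtracted. Of 10 tested proteins that signal below MAVS and STING, none rose and 3 fell, a share of falls near that over all genes. The kinase IKBKE, which phosphorylates IRF3, had 5.20 and 4.99 FPKM in the libraries labelled KO and 6.69 and 6.80 FPKM in WT (−0.34, adjusted p = 0.00175), and the adaptor TRAF2 fell by 0.31 (adjusted p = 0.00337). Of 9 other sensors and RIG-I cofactors, 1 rose and 2 fell, namely ZC3HAV1, TICAM1 and LSM14A, each with a call lost when some library was left out. TLR3, the endosomal sensor of duplex RNA, was below the filter but stood apart, with 1.54 and 1.55 FPKM in the libraries labelled KO and 0.478 and 0.325 FPKM in WT (0.86 with no filter, adjusted p = 0.00943). Of 7 tested nucleases, none rose and 2 fell, RNASEH2C most (16.9 and 17.0 FPKM in the libraries labelled KO, 23.9 and 24.8 FPKM in WT; −0.50, adjusted p = 0.000229). Among 20 other tested interferon-induced genes, 6 rose and 6 fell, with a median of 0.02. The largest rises there were TNFSF10, which encodes TRAIL (6.65 and 7.30 FPKM in the libraries labelled KO, 1.35 and 1.49 FPKM in WT; 1.72), and the STAT-binding protein NMI (9.10 and 8.93 FPKM in the libraries labelled KO, 5.90 and 5.88 FPKM in WT; 0.54). The largest falls were LAP3, a leucine aminopeptidase (30.2 and 30.8 FPKM in the libraries labelled KO, 47.6 and 46.3 FPKM in WT; −0.61, on chromosome 4, where the bin median was −0.40, leaving −0.20), and the cytidine deaminase APOBEC3B (13.2 and 12.6 FPKM in the libraries labelled KO, 16.3 and 19.8 FPKM in WT; −0.45).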

How the data were processed

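Total RNA of 4 libraries was sequenced commercially, per the labels' protocols, and libraries were grouped by title. Per the submitters' processing notes, the tools included STAR, Subread and DESeq2, without version or role; the build, the annotation and whether strand was used are not stated in them. The authors deposited FPKM values for 39259 genes by Entrez ID with exon coordinates and gene length, per the file headers. From the values, FPKM times length gave whole fragments for 100% of values above 0 (tolerance 0.001), which gave the depths. Symbols came from RefSeq (GRCh38.p14) for 37708 genes (96.0%), and 98.4% of 37675 genes had a start or end within 1000 bp of that assembly, so deposited coordinates are printed as GRCh38.

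The test was limma 3.58.1 (R 4.3.3), with its trend and robust options, on log2(FPKM + 1) of genes that averaged 1 FPKM or more, with Benjamini-Hochberg adjustment over all 11716 genes and a threshold of 0.05. Fold changes on this scale understate those of low genes. Bins of 20 Mb give the median change of the other tested genes near a gene. Where bin medians were subtracted they were fixed values, so those adjusted p-values leave out the spread within a bin. The genes and lists were chosen with earlier results of these data known. Values per library are given for genes past the threshold with an absolute log2 change of at least 0.4, for the 2 most abundant genes of each role and for further genes as space allowed; of each list around the module at most the 2 largest rises and falls were named, besides TLR3, IFNB1, IFNL1, ZC3HAV1, TICAM1 and LSM14A, named after their values were seen. Alternatives were another pseudocount, filters, scalings, variance model, voom on fragments, bin medians subtracted, a replicate block and leaving out each library. The steps were tested on simulated data. As a check for 1 library deposited in 2 copies, counts within a group were compared with sampling noise and differed by more (chi-square over degrees of freedom, 7.37 within KO and 10.5 within WT); this does not show that replicates were separate cultures. Promoter windows are those of RefSeq.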

Additional observations from a re-analysis of the deposited data

How the results depend on the processing

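Of the 30 changes past the threshold in the module, 18 rises and 3 falls stayed past it in every alternative chosen at the start that tested them. With no filter on low values 24 of the 30 stayed past it (lost were IRF2, IFIT1, ADAR, ISG20, IFITM3 and IFI35), without KO replicate 1 also 24 and without KO replicate 2 22. A mean of at least 5 FPKM left 39 genes of the module tested and 15 rises, and no change among these genes was lost. Leaving out 1 library gave 3 to 10 falls and 19 to 25 rises in the module, and 1559 to 3076 rises and 1962 to 4001 falls over all genes. The library left alone in its group was then given the spread of the remaining pair. Same-numbered libraries deviated from their group means with a correlation of −0.22 across genes, so the numbers were not used as pairs. A replicate block gave 25 rises and 5 falls in the module and 2348 and 3029 over all genes. A crossed replicate block, added after the data were seen, gave 24 and 10 in the module and 2839 and 3821 over all genes. Of the 30 changes past the threshold, the sign turned only for IRF2, to −0.20 with bin medians subtracted. Among changes that had not passed, signs also turned. With bin medians subtracted IRF9 was at −0.025, CGAS at −0.12, IFIT3 at 0.071, EIF2AK2 at 0.028, IFI6 at −0.010 and LGALS3BP at 0.013. With median-of-ratios scaling IFIT3 was at 0.00045 and EIF2AK2 at 0.018. With voom EIF2AK2 was at 0.013 and IFI27 at 0.028, and with quantile normalization LGALS3BP was at 0.0099. Leaving out 1 library gave ranges that cross 0 for IRF7 (−0.37 to 0.048), IRF9 (−0.028 to 0.11), IFI16 (−0.014 to 0.080), IFIT3 (−0.092 to 0.0041), EIF2AK2 (−0.12 to 0.073), SAMHD1 (−0.012 to 0.092), IFI6 (−0.0086 to 0.48), IFI27 (−0.18 to 0.078) and LGALS3BP (−0.12 to 0.025). The causes were not tested, and subtracting bin medians is not a test of a cause. The 5 untested genes of the module had means under 1 FPKM and rest on 13 to 224 fragments per library, so changes there are poorly resolved.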

Other observations

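Beside the fall of APOBEC3B, the related cytidine deaminase APOBEC3C rose, with 8.003 and 7.88 FPKM in the libraries labelled KO and 5.82 and 5.66 FPKM in WT (log2 change 0.41, adjusted p = 0.000719). APOBEC3G lay below the filter, at 1.10 and 1.201 FPKM in the libraries labelled KO and 0.442 and 0.504 FPKM in WT, and with no filter its change was 0.54 (adjusted p = 0.0123). APOBEC3F measured 0.785 and 0.674 FPKM in the libraries labelled KO and 0.368 and 0.372 FPKM in WT. These genes are similar in sequence, so reads may be shared among them.

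TREX1, the exonuclease that removes cytosolic DNA upstream of cGAS, was listed at 0 in all 4 libraries. All 1436 bases of its exons lie inside exons of ATRIP and of the readthrough gene ATRIP-TREX1 on the same strand. The level of TREX1 RNA therefore cannot be read from this table.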
